A study of Mus musculus with 9 samples.

Results

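Gene expression was compared between the atrioventricular (AV) nodes of Cx3cr1 Cx43-/- mice and those of control mice by RNA sequencing. The Cx3cr1 Cx43-/- group held 3 libraries, numbered 4, 5 and 6, and the control group held 3, numbered 1, 2 and 3. Both groups were C57BL/6J mice, and each library was made from total RNA of the microdissected node. The name of the mutant group joins Cx3cr1, the fractalkine receptor of macrophages, with a loss of connexin 43, the product of Gja1. The labels do not state the age or sex of the mice, whether the recombinase was inducible, whether controls carried it or a floxed allele, or whether nodes were pooled. According to the series' design text, libraries within a group are biological replicates. All genes at 1 CPM (counts scaled to a fixed library total) or more in at least 3 of these 6 libraries were described, which were 12706 of the 34198 symbols in the deposited table. This set was not chosen by response, but most genes named from it below were picked by their p and by groups that did not overlap, or after their values were seen.

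The AV node delays the impulse on its way from the atria to the ventricles, and its cells are small myocytes joined by few gap junctions. Connexins assemble into hemichannels, and a pair of hemichannels docked between neighbouring cells forms a gap junction channel through which ions and small molecules pass. Connexin 43 is the main connexin of working myocardium. Resident cardiac macrophages lie among the nodal myocytes and also make connexin 43, and a deletion limited to macrophages leaves the myocyte gene in place. The comparison addresses what such a deletion does to the transcriptome of the node as a whole.

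The listed genes took 42.8% to 48.7% of the total to which CPM is scaled in the controls and 46.8% to 47.9% in the Cx3cr1 Cx43-/- libraries. From the spacing of low values, 1 read was worth 0.016 to 0.0186 CPM, so that 1 CPM rested on about 53.8 to 62.5 reads. Of 35 conduction system genes in a fixed list, 34 were measured, among them Hcn4, the pacemaker channel, at 18.9, 15.4 and 19.3 CPM in the controls and 15.5, 19.9 and 15.7 CPM in the Cx3cr1 Cx43-/- libraries. None of 20 listed T, B and NK cell genes reached the level for inclusion. Ighm, the heavy chain of IgM, was not on that list and did reach it. Control library 2 stood apart from the other libraries. It held 15130 symbols above 0, against 17418 to 18748 in the other 5, and it was the lowest of the 6 for 49.5% of the genes. It lay more than 1 log2 unit below all the other 5 for 409 genes, against 0 to 9 genes for any other library. Results are therefore also given without it.

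Gja1, the gene named in the deletion, was measured at 246, 163 and 211 CPM in control libraries 1, 2 and 3 and at 179, 229 and 250.0 CPM in Cx3cr1 Cx43-/- libraries 4, 5 and 6. The groups overlapped, with the lowest value in control library 2 and the highest in Cx3cr1 Cx43-/- library 6. The means were 207 ± 41.8 and 219 ± 36.4 CPM (SD, n = 3), a log2 change of 0.092 (95% interval -0.37 to 0.55), and an exact two-sided permutation test gave p = 0.6. Without control library 2 the change was -0.069. In RNA of the whole node, fewer cells of a type and less RNA per cell cannot be told apart, and a loss of Gja1 from macrophages alone cannot be separated from the Gja1 of myocytes and other cells. The Gja1 level therefore does not serve as a check of the labels.

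Cx3cr1, whose gene names the line, stood at 6.06, 7.01 and 3.61 CPM in the controls and at 2.74, 3.11 and 5.87 CPM in the Cx3cr1 Cx43-/- libraries. Libraries 4 and 5 lay below all the controls and library 6 lay among them. The log2 change was -0.48 (95% interval -1.22 to 0.26; exact two-sided permutation p = 0.2). Hereafter, control values in the order of libraries 1, 2 and 3 are set against those of libraries 4, 5 and 6. Itgam, which encodes the integrin CD11b of myeloid cells, was at 8.93, 1.64 and 5.37 CPM in the controls and 7.57, 11.4 and 7.99 CPM in the Cx3cr1 Cx43-/- libraries. Its log2 change was 0.93 with all 6 libraries and 0.33 without control library 2, which held its lowest value. Hbegf, a growth factor of the EGF family, was at 10.3, 13.9 and 13.9 against 10.1, 13.3 and 11.8 CPM, with overlapping groups and a log2 change of -0.11.

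**Figure D1:**
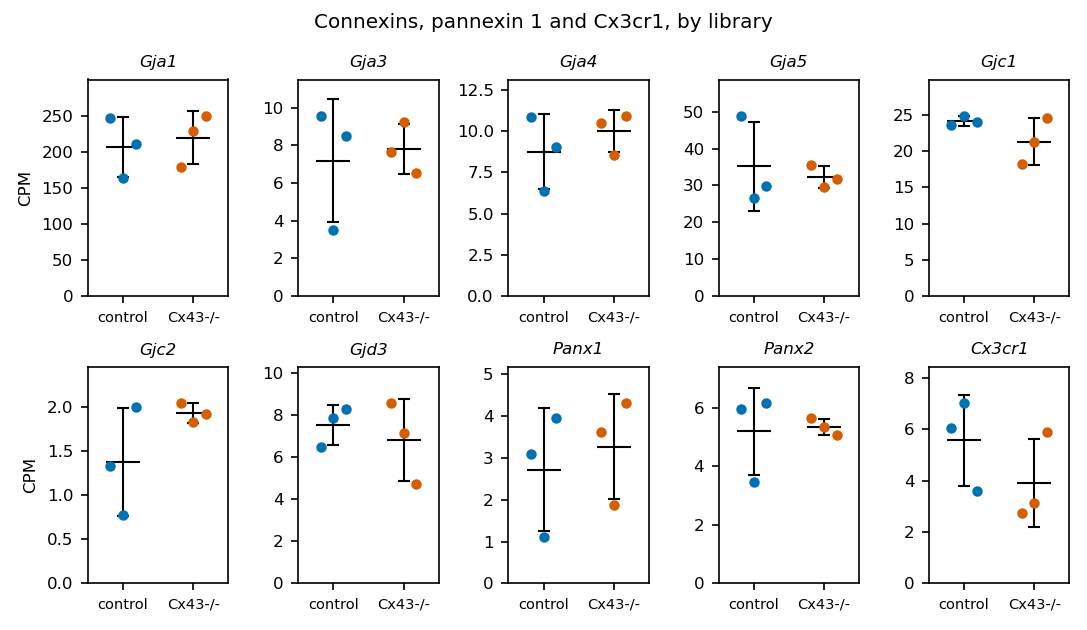
CPM of the measured connexin and pannexin genes and of Cx3cr1 in each library (points), with the mean and SD of each group of 3 (bars, blue controls and orange Cx3cr1 Cx43-/-). The groups overlapped in every panel, Gja1 included.

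Of 23 listed connexin and pannexin genes, 9 were measured, and limma gave 0 of them an unadjusted p under 0.05, beside 1.48% of all genes. The median log2 change of the 9 was 0.09, beside 0.07 for all genes. Without control library 2 it was -0.15, beside 0.002. Gja5 (connexin 40, the fast-conducting connexin of atrium and His-Purkinje system) was at 48.9, 26.5 and 29.9 CPM in the controls and 35.5, 29.4 and 31.7 CPM in the Cx3cr1 Cx43-/- libraries. Its groups overlapped, and the log2 change was -0.077 (95% interval -0.62 to 0.46). Gjc1 (connexin 45, the connexin of nodal myocytes) was at 23.6, 24.9 and 23.99 against 18.2, 21.2 and 24.6 CPM. Control values of Gjc1 lay close together, and library 6 reached their level. Gjd3 was at 6.46, 7.88 and 8.27 against 8.57, 7.17 and 4.71 CPM, and the endothelial connexin Gja4 at 10.9, 6.36 and 9.04 against 10.5, 8.58 and 10.9 CPM. Panx1, a large-pore channel of the plasma membrane, was at 3.09, 1.1 and 3.96 against 3.61, 1.87 and 4.31 CPM, with its lowest value in control library 2. Of 22 listed partners of connexin 43 and genes of the intercalated disc, 0 had an unadjusted p under 0.05, beside 1.48% of all genes. The median log2 change of these 22 was 0.10. Of these, the desmosomal cadherin Dsg2 was at 53.7, 15.4 and 27.4 CPM in the controls and 31.04, 48.3 and 42.05 CPM in the Cx3cr1 Cx43-/- libraries, and all of the latter lay within the control range.

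Across the 12706 genes, limma called 1 at an adjusted p under 0.05 (0.00787%), a lower one, and 0 higher. At an unadjusted p under 0.05 there were 188 genes (1.48%), 165 higher (1.3%) and 23 lower (0.181%). Groups did not overlap for 753 genes in the higher direction (5.93%) and 380 in the lower (2.99%). The median log2 change was 0.07, and 65.4% of genes lay above 0. Without control library 2 these became 0.002 and 50.5%, and the genes at an unadjusted p under 0.05 became 40 higher and 18 lower. The lean toward higher values also depended on scaling. Under median-of-ratios scaling of all 6 libraries the median was -0.002, 49.4% of genes lay above 0, and 175 were higher and 92 lower at an unadjusted p under 0.05. Under a common total over the listed genes these were 0.02, 55%, 199 and 76. The counts at an unadjusted p under 0.05 were 522 and 39 without control library 1, and 71 and 27 without Cx3cr1 Cx43-/- library 5.

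**Figure D2:**
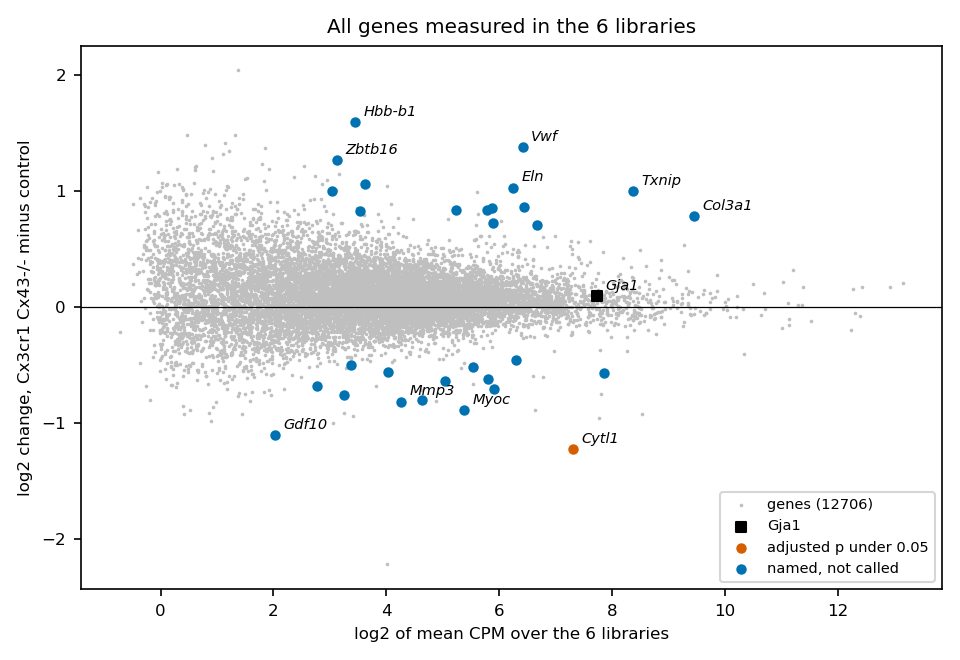
Log2 change (Cx3cr1 Cx43-/- minus control, on the log2(CPM + 0.5) scale) against the log2 of the mean CPM for 12706 genes (grey). Cytl1 (orange) was the single gene called, Gja1 (black) lay near 0, and the other genes named by rule (blue) were not called.

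The single gene called was Cytl1, which fell. It encodes cytokine-like 1, a secreted protein known from cartilage. It was at 197, 245 and 226 CPM in control libraries 1, 2 and 3 and at 87.3, 116 and 83.2 CPM in Cx3cr1 Cx43-/- libraries 4, 5 and 6. All 3 mutant values lay below all 3 controls. The means were 223 ± 24.3 and 95.4 ± 17.7 CPM (SD, n = 3), a log2 change of -1.23 (SE 0.20, 95% interval -1.64 to -0.81; limma adjusted p = 0.033). An exact permutation test gave p = 0.1, the smallest that 3 against 3 allows. Any gene without overlap between the groups gives this value, so the test adds nothing to the lack of overlap. As alternatives, 18 other settings or library sets were run. The log2 change lay between -1.37 and -1.14 under all of them, and the call was made in 11. It was lost without control library 2 (limma adjusted p = 0.385), control library 3 (0.656), Cx3cr1 Cx43-/- library 4 (0.834) or library 6 (0.424). It was also lost with a pseudocount of 0.1 (limma adjusted p = 0.0636), without a filter (0.224) and without a variance trend (1). In the macrophage-depleted libraries of the series, Cytl1 was at 54.6, 48.4 and 53.5 CPM. Other genes named below as lower lay on either side of the controls there. Myoc was at 19.97, 15.7 and 17.6 CPM and Mmp3 at 166, 315 and 164 CPM, against control means of 53.95 and 24.6 CPM. A shared cause was not tested.

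The next genes by p were not called, at a limma adjusted p of 0.401 or more, and are given as values. Among those below the controls, Myoc, which encodes the extracellular glycoprotein myocilin, was at 59.4, 51.3 and 51.2 CPM in the controls and 24.8, 27.1 and 35.3 CPM in the Cx3cr1 Cx43-/- libraries. The log2 change was -0.89 (SE 0.21), and -0.93 without control library 2. Mmp3, the matrix protease stromelysin 1, was at 26.2, 24.9 and 22.9 against 11.8, 15.2 and 14.4 CPM, also without overlap, a log2 change of -0.82 (SE 0.24). Sfrp5, a secreted Wnt antagonist, was at 68.7, 82.5 and 70.8 against 59.1, 43.98 and 34.6 CPM. Gdf10, a ligand of the TGF-beta superfamily, was at 7.82, 3.55 and 5.81 against 1.1, 3.35 and 2.95 CPM, and Igfbp3, which binds insulin-like growth factors, at 68.5, 74 and 60.2 against 44.98, 53.2 and 34.3 CPM. For Gdf10 the nearest values were 3.55 in control library 2 and 3.35 in library 5. Cxcl14, a chemokine, was at 14.2, 9.87 and 11.8 against 4.16, 9.79 and 7.51 CPM, with library 5 just under the lowest control. Gcgr, the glucagon receptor, was at 17.8, 20.7 and 20.1 CPM in the controls and 13.9, 15 and 10.6 CPM in the Cx3cr1 Cx43-/- libraries. Lrtm1, a leucine-rich repeat membrane protein, was at 41.7, 47.04 and 31.5 against 17.9, 31.1 and 28.6 CPM. Of the 15 genes named in this direction, 13 had an unadjusted p under 0.05, and 9 had it without control library 2.

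Above the controls, the smallest p belonged to Vwf, von Willebrand factor of endothelium and platelets, at 74.3, 32.1 and 41.1 CPM in the controls and 106, 145 and 114 CPM in the Cx3cr1 Cx43-/- libraries. Its log2 change was 1.38 (SE 0.28; limma adjusted p = 0.401), and 1.12 without control library 2. Zbtb16, a zinc-finger transcription factor induced by glucocorticoids, was at 7.36, 2.86 and 4.2 against 8.12, 21.1 and 8.8 CPM, and its value in library 5 stood well above all others. Txnip, the thioredoxin-interacting protein that restrains glucose uptake, was at 177, 249.8 and 209.8 against 399.6, 271 and 680.5 CPM. Its mutant values were spread, and that of library 5 was only a little above the highest control. Dclk1, a microtubule-associated kinase, was at 8.06, 2.99 and 5.74 against 10.5, 11.4 and 10.9 CPM, with mutant values close together. Stc2, the secreted glycoprotein stanniocalcin 2, was at 9.28, 7.05 and 8.15 against 18.1, 13.8 and 12.7 CPM, and Chd6, a chromatin remodeller, at 37.8, 17.9 and 26.1 against 43.2, 61.4 and 38.95 CPM. For Chd6 the lowest mutant value and the highest control differed by little. Of the 15 genes named as higher, 14 kept an unadjusted p under 0.05 without control library 2, and log2 changes ranged from 0.71 to 1.59.

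**Figure D3:**
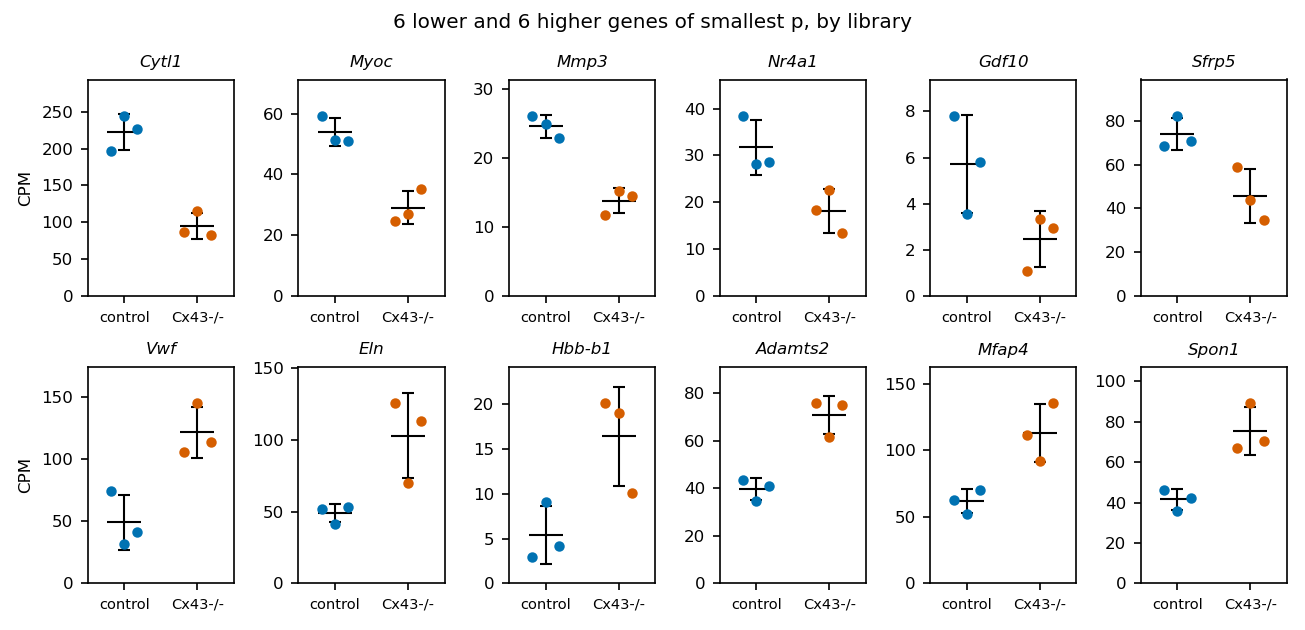
CPM in each library (points) with the mean and SD of each group of 3 for the 6 lower genes (top) and 6 higher genes (bottom) of smallest p among those named. Blue points are controls and orange points Cx3cr1 Cx43-/- libraries. The genes were chosen to have no overlap between them, and of the 12 Cytl1 alone passed the adjusted threshold.

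Several of the genes named as higher encode proteins of the extracellular matrix, none of them called. All 40 listed fibroblast and matrix genes were measured, 35 lay above 0, and 10 had an unadjusted p under 0.05 in the higher direction and 0 in the lower. Over all genes 65.4% lay above 0, and 1.3% were higher at this p. The median of the list log2 change was 0.28 beside 0.07 for all genes. Without control library 2 the median was 0.24 beside 0.002, 35 lay above 0 and 4 had an unadjusted p under 0.05. Groups did not overlap for 21 genes of the list in the higher direction and 2 in the lower, beside 5.93% and 2.99% of all genes. Eln, elastin, was at 52.01, 41.7 and 53.3 CPM in the controls and 126, 69.7 and 113 CPM in the Cx3cr1 Cx43-/- libraries, a log2 change of 1.03 (SE 0.22). Mfap4, a glycoprotein bound to elastic fibres, was at 62.7, 52.3 and 70.2 against 111, 91.6 and 135 CPM. Fbn1, the fibrillin of microfibrils, was at 87.5, 69.6 and 75.6 against 126, 110.2 and 145 CPM. These 3, and Col3a1, Adamts2, Adamtsl2 and Spon1 below, were among the genes chosen for groups that did not overlap. The fibrillar collagen Col3a1 was at 613, 429.7 and 519 against 939, 788 and 936 CPM, a log2 change of 0.78 (SE 0.23). Adamts2, which trims procollagen, was at 43.5, 34.6 and 40.9 against 75.9, 61.7 and 75.04 CPM, and its relative Adamtsl2, which binds microfibrils, at 40.4, 42.8 and 50.99 against 80.2, 68.96 and 72.3 CPM. The matrix protein Spon1 (F-spondin) was at 46.4, 35.8 and 42.5 against 66.8, 89.2 and 70.3 CPM. Not all matrix genes lay higher. Col1a1 had a log2 change of 0.15, and the small proteoglycans Dcn and Lum had -0.004 and 0.075. Thbs1, the matricellular protein thrombospondin 1, was at 75.5, 105 and 91.7 CPM in the controls and 52.3, 70.5 and 75.05 CPM in the Cx3cr1 Cx43-/- libraries. It too was chosen for having no overlap.

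Of 23 measured cartilage and valve genes, which include Cytl1, 3 had an unadjusted p under 0.05 in the lower direction and 0 in the higher. Without control library 2 this was 1 gene. Their median log2 change was -0.13, and -0.21 without that library. Over all genes the medians were 0.07 and 0.002, and with all 6 libraries 0.181% were lower at an unadjusted p under 0.05. Comp, the cartilage oligomeric matrix protein, was at 203, 355 and 279 CPM in the controls and 176, 183 and 189.6 CPM in the Cx3cr1 Cx43-/- libraries. Control library 2 held the highest value, and the log2 change went from -0.57 to -0.38 without it. Chad, chondroadherin, was at 89.96, 178 and 135 against 69.3, 84.3 and 104 CPM, and its groups overlapped. Sox9, a transcription factor of cartilage and valve, was at 13.1, 7.51 and 8.91 against 8.3, 9.07 and 7.9 CPM, with overlap as well. Prg4, a lubricating proteoglycan, had a log2 change of -0.046 and Thbs4 one of -0.046.

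Of 35 measured genes of resident macrophages, 32 had a log2 change above 0, with a median of 0.35, beside 65.4% above 0 and a median of 0.07 for all genes. An unadjusted p under 0.05 was found for 6, all higher, beside 1.3% of all genes. Without control library 2 it was found for 0, when the median was 0.24 and 30 lay above 0. Summed over the 35 genes, the libraries held 1341, 941 and 1153 against 1378, 1581 and 1275 CPM, with control library 2 lowest. Siglec1, a sialic acid-binding receptor, was at 4.98, 1.99 and 2.93 CPM in the controls and 6.25, 12.8 and 6.04 CPM in the Cx3cr1 Cx43-/- libraries. The highest value was that of library 5. The mannose receptor Mrc1 was at 48.7, 32.7 and 39.5 against 53.5, 69.7 and 50.8 CPM, a log2 change of 0.52 (SE 0.24), and 0.38 without control library 2. The scavenger receptor Cd163 was at 17.6, 11.2 and 10.6 against 18.7, 29.4 and 16.8 CPM, and Lyve1, a hyaluronan receptor of resident macrophages and lymphatics, at 23.1, 10.1 and 17.4 against 27.1, 33.9 and 22.4 CPM. Both overlapped between groups. Csf1r, the receptor for the growth factor that macrophages need, was at 75.4, 41.5 and 61.1 against 64.3, 76.99 and 73.1 CPM, and the myeloid lysozyme Lyz2 at 263, 216 and 255 against 262, 295 and 244 CPM. In neither did the groups separate. Those below 0 included Cx3cr1 and the chemokine Ccl24, at 5.63, 3.89 and 4.27 against 3.83, 3.55 and 2.53 CPM.

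The genes of antigen presentation by MHC class II and of dendritic cells went the other way in sign. All 11 measured had a log2 change below 0, with a median of -0.37, and 2 had an unadjusted p under 0.05. Over all genes 65.4% lay above 0, the median was 0.07, and 0.181% were lower at this p. Without control library 2 all 11 lay below 0 with a median of -0.67, and 4 had an unadjusted p under 0.05. Of all genes 50.5% then lay above 0, with a median of 0.002. Cd74, the invariant chain, was at 159, 75.99 and 118 CPM in the controls and 70.8, 91.2 and 64.1 CPM in the Cx3cr1 Cx43-/- libraries. The value in control library 2 lay within the mutant range, and the log2 change went from -0.59 to -0.88 without it. The class II chain H2-Eb1 was at 68.3, 30.8 and 44.3 against 29.1, 40.2 and 26.2 CPM, a log2 change of -0.53 and -0.80 without control library 2. The chains H2-Aa (63.2, 27.7 and 42.8 against 29.7, 42.6 and 27.01 CPM) and H2-Ab1 (55.8, 19.97 and 39.3 against 24.2, 33.3 and 20.98 CPM) had the same order of libraries within the controls, with library 2 lowest. Clec9a, a receptor of cross-presenting dendritic cells, was at 1.79, 2.18 and 2.06 against 0.83, 1.04 and 0.71 CPM, the one gene of the list whose groups did not overlap. Summed over all 18 listed genes, including those under the level for inclusion, the libraries held 385, 175 and 275 against 174, 234 and 159 CPM. These genes were measured in the same libraries as those of resident macrophages, and the difference between the lists was not tested.

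**Figure D4:**
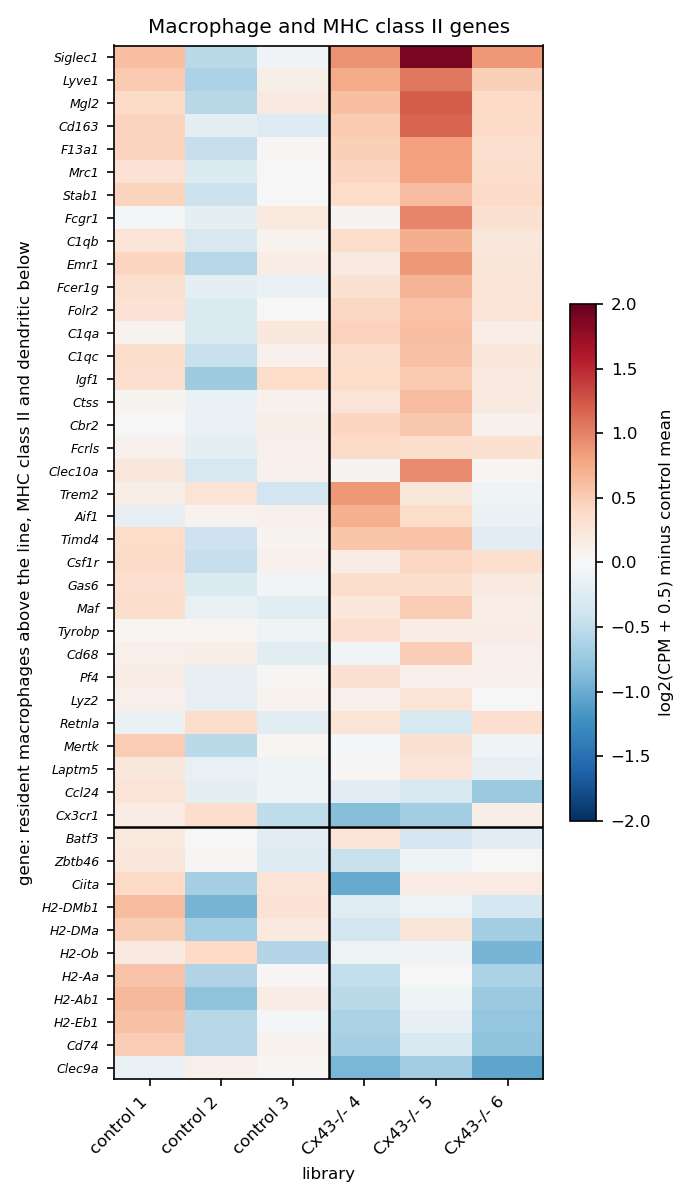
Log2(CPM + 0.5) of each gene minus its control mean, by library, for 34 of the 35 resident macrophage genes (above the line) and 11 MHC class II and dendritic cell genes (below it), red for higher and blue for lower. Control library 2 was low for many genes of both lists, Cx3cr1 Cx43-/- library 5 was the highest for many macrophage genes, and most class II genes were below the control mean in libraries 4 and 6.

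Interferon-stimulated genes lay mostly above 0. Of 37 measured, 36 did so, and 35 without control library 2, with medians of 0.37 and 0.29. Over all genes 65.4% lay above 0, and 50.5% without that library, with medians of 0.07 and 0.002. An unadjusted p under 0.05 was found for 4 higher, beside 1.3% of all genes, and 0 lower, and for 2 and 0 without that library. Irf7, a transcription factor of the interferon response, was at 10.3, 4.95 and 8.34 CPM in the controls and 14.1, 23.6 and 12.9 CPM in the Cx3cr1 Cx43-/- libraries, a log2 change of 1.06 (SE 0.29). The cytosolic nucleic acid sensor Zbp1 was at 2, 0.26 and 1.08 against 3.24, 4.21 and 2.14 CPM, close to the level for inclusion. The class I light chain B2m was at 211, 156 and 207 against 234, 337 and 232 CPM, without overlap. Of 20 measured inflammatory and NF-kB genes, 4 were higher and 1 lower at an unadjusted p under 0.05, and 0 and 1 without control library 2. Over all genes 1.3% were higher and 0.181% lower with all 6 libraries. The monocyte chemokine Ccl8 was at 5.66, 2.47 and 4.36 against 8.8, 11.4 and 4.97 CPM, and Ccl9 at 11.9, 5.84 and 9.07 against 12.5, 17.8 and 13.3 CPM. For both, control library 2 was lowest. The 26 measured complement and coagulation genes had a median log2 change of 0.33, and 0.17 without that library, with 2 and then 0 at an unadjusted p under 0.05. C3, the central complement component, was at 394, 213 and 297 against 358, 568 and 339 CPM, with library 5 highest and library 2 lowest.

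Of 34 conduction system genes, 0 had an unadjusted p under 0.05 by limma on the deposited scale, with or without control library 2. The share over all genes was 1.48% with all 6 libraries. With all 6 libraries 17 lay above 0 and 17 below, with a median log2 change of -0.02, and without control library 2 11 lay above 0 with a median of -0.06. The median was -0.10 under median-of-ratios scaling. For 28 of the 34 genes the 95% interval lay within a 2-fold change in either direction, beside 80.2% of all genes. Groups did not overlap for 2 of the 34 in the higher direction and 4 in the lower. Those shares were 5.93% and 2.99% over all genes. Tbx3, the transcription factor that sets nodal identity, was at 37.2, 37.9 and 30.1 CPM in the controls and 31.2, 37.9 and 26.6 CPM in the Cx3cr1 Cx43-/- libraries, a log2 change of -0.14 (95% interval -0.60 to 0.32). The adhesion molecule Cntn2 of the conduction system was at 137, 174 and 139 against 135, 157 and 127 CPM. The T-type calcium channel Cacna1g was at 106, 114 and 98.8 against 86.5, 103 and 77.99 CPM. All of these overlapped between groups. Cacna2d2, an accessory calcium channel subunit, was at 113, 79.7 and 80.4 against 56.5, 86.3 and 60.4 CPM, a log2 change of -0.43 (95% interval -0.94 to 0.076), with libraries 4 and 6 under all controls and library 5 among them. Cpne5, a copine enriched in conduction tissue, was at 47.4, 39.7 and 42.04 against 31.3, 39.6 and 28.2 CPM. Under median-of-ratios scaling, limma gave an unadjusted p of 0.0057 for Cacna2d2 and 0.034 for Cpne5, both lower. For the T-type calcium channel Cacna1h, also lower, it was 0.032. Under a common total it was 0.010 for Cacna2d2, 0.044 for Cpne5 and 0.059 for Cacna1h. The natriuretic peptide Nppa, an atrial gene, was at 966, 195 and 531 against 699, 557 and 776 CPM, with control library 2 lowest and control library 1 highest.

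Of 21 measured sodium and calcium channel genes, 1 had an unadjusted p under 0.05, beside 1.48% of all genes. It was the sodium-calcium exchanger Slc8a1, at 46.2, 36.4 and 35.4 CPM in the controls and 48.8, 78.2 and 56.8 CPM in the Cx3cr1 Cx43-/- libraries. Its log2 change was 0.61 (SE 0.29), with library 5 highest. The unadjusted p by limma was 0.0456, 0.11 without control library 2 and 0.119 under median-of-ratios scaling. On the deposited scale, 0 of 25 potassium channel, 22 autonomic receptor and signalling, and 23 calcium cycling genes had an unadjusted p under 0.05. Of all genes 1.48% had it. The medians of these lists were 0.06, 0.07 and 0.11, beside 0.07 for all genes. Under median-of-ratios scaling, limma gave an unadjusted p of 0.018 for the autonomic list's Adra1b, lower, and 0.037 for its Npr3, higher. The 17 atrial genes had a median log2 change of 0.26, and -0.03 without control library 2. The 14 ventricular genes had -0.18, and -0.07 without it. Over all genes these medians were 0.07 and 0.002. Sarcomere genes stayed near 0 as measured, with a median of 0.04 over 32 genes (-0.04 under median-of-ratios scaling), and for 31 of them the 95% interval lay within a 2-fold change. Myh7, the slow myosin heavy chain, was at 379, 479 and 376 against 343, 553 and 596 CPM, and Ckm, muscle creatine kinase, at 439.6, 394 and 429 against 433, 386 and 435 CPM. The groups overlapped for both. For all 31 respiratory chain genes the interval lay within a 2-fold change, with a median of -0.04. The interval did so for 80.2% of all genes and for 97.7% of those with a mean above 50 CPM.

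Among 28 measured endothelial genes, which include Vwf, 5 had an unadjusted p under 0.05 in the higher direction and 0 in the lower, and 1 without control library 2. The median log2 change went from 0.19 to 0.06 without it. Over all genes the median went from 0.07 to 0.002, and 1.3% were higher at an unadjusted p under 0.05 with all 6 libraries. Pecam1, an adhesion molecule of all endothelium, was at 95.7, 69.8 and 84.3 CPM in the controls and 104, 114 and 111 CPM in the Cx3cr1 Cx43-/- libraries. The junctional cadherin Cdh5 was at 110.0, 65.4 and 90.1 against 86.2, 89.9 and 106 CPM, with overlap. Klf2, a transcription factor that responds to shear stress, was at 57.4, 47.4 and 58.9 against 42.1, 31.9 and 40.1 CPM. It was lower in the mutants and was chosen for having no overlap. Transcripts of blood cells were among the genes of largest log2 change. Of 6 measured erythroid and platelet genes, 4 had an unadjusted p under 0.05 in the higher direction, beside 1.3% of all genes. The median log2 change of the list was 1.18, and 1.49 without control library 2. The 4 genes are adult alpha and beta globin genes. Within each kind the copies are near-identical, and reads can be split between them. Of the 4, Hba-a2 entered the set only through the mutant libraries, where it is high. Summed over the 11 listed genes with values, including those under the level for inclusion, the libraries held 20.1, 27.2 and 21.5 against 43.4, 44.4 and 32.3 CPM. Hbb-b1 was at 2.91, 9.06 and 4.2 CPM in the controls and 20.1, 18.96 and 10.04 CPM in the Cx3cr1 Cx43-/- libraries, and Hba-a1 at 0.56, 2.68 and 0.49 against 4.56, 3.77 and 2.87 CPM. Platelet Itga2b was at 1.68, 1.47 and 2.13 against 1.36, 1.95 and 1.97 CPM, with no separation of the groups. The part of blood content in the levels of Vwf and other genes was not tested.

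Genes of the circadian clock were listed because the labels do not give the time of collection. Of 24 measured, 2 were higher and 1 lower at an unadjusted p under 0.05, with or without control library 2. Over all genes 1.3% were higher and 0.181% lower with all 6 libraries. The clock output factor Dbp was at 12.4, 11.1 and 7.41 CPM in the controls and 15.3, 23.1 and 27.1 CPM in the Cx3cr1 Cx43-/- libraries, a log2 change of 1.04 (SE 0.38). The period gene Per2 was at 5.22, 2.99 and 2.48 against 5.26, 9.16 and 5.61 CPM. In both, every mutant value was above every control, by little for Per2. Nfil3, a repressor acting on the same DNA element as Dbp, was at 12.3, 10.3 and 14.4 against 9.68, 7.71 and 8.09 CPM, the clock repressor Cry1 at 8.02, 10.4 and 7.06 against 3.86, 6.3 and 5.19 CPM, and the activator Arntl at 26.6, 24.1 and 22.2 against 18.5, 20.03 and 16.8 CPM. These lay lower in every mutant library than in any control, and Nfil3 and Cry1 were chosen for having no overlap. Groups did not overlap for 4 of the 24 clock genes in the higher direction and 4 in the lower. Over all genes these shares were 5.93% and 2.99%. Among the higher clock genes, Gm129 entered the set only through the mutant libraries and so could not overlap. The part of collection time in these and other genes was not tested. Of 27 immediate early genes, 2 were lower at an unadjusted p under 0.05 and 0 higher, beside 0.181% and 1.3% of all genes. One was Klf2 and the other Nr4a1, an orphan nuclear receptor, at 38.5, 28.2 and 28.6 against 18.3, 22.7 and 13.5 CPM. Egr1 was at 31.8, 51.5 and 36.6 against 17.1, 45.1 and 38.9 CPM, with overlap. Of 20 glucocorticoid-responsive genes, Zbtb16 and the metallothionein Mt2 (10.8, 7.18 and 11.3 against 16.02, 13.3 and 16.8 CPM) had an unadjusted p under 0.05, both higher. Of all genes 1.3% were higher at this p.

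Many proliferation genes were near the level for inclusion. Of 29 measured, 27 lay above 0, 3 had an unadjusted p under 0.05, all higher, and the median went from 0.46 to 0.24 without control library 2. Over all genes 65.4% lay above 0, 1.3% were higher at this p, and the median went from 0.07 to 0.002. Of the 3 proliferation genes, Ube2c, a ubiquitin-conjugating enzyme, was at 0.64, 0.76 and 0.47 against 1.85, 1.24 and 1.32 CPM. It entered the set only through the mutant libraries and so had to lie higher in them. Mki67, a marker of cycling cells, was at 3.02, 0.99 and 1.88 CPM in the controls and 5.26, 4.77 and 4.85 CPM in the Cx3cr1 Cx43-/- libraries, and the topoisomerase Top2a at 2.59, 1.36 and 2.44 against 4.39, 5.25 and 5.27 CPM. Neither overlapped between groups. Beside 1.48% of all genes, other lists had 0 at an unadjusted p under 0.05 with all 6 libraries on the deposited scale. These included 18 heat shock, 24 unfolded protein response, 30 proteasome and translation, 31 fatty acid oxidation and 25 glycolysis genes. Their median log2 changes were -0.06, 0.10, 0.04, 0.002 and -0.005.

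**Figure D5:**
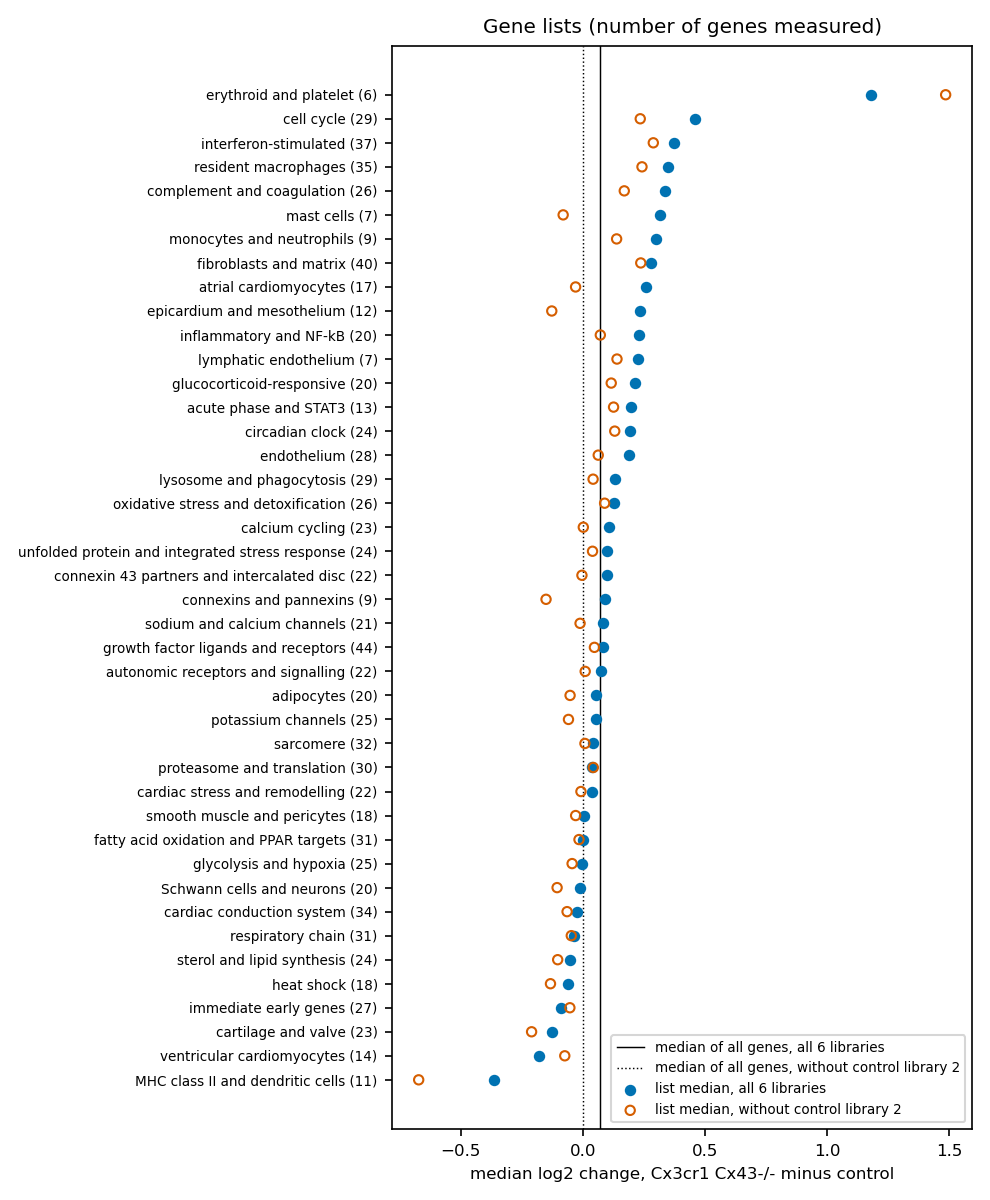
Median log2 change of each gene list with at least 5 genes measured (number of genes in parentheses) with all 6 libraries (filled) and without control library 2 (open), beside the medians of all genes (lines). Erythroid genes stood highest and MHC class II genes lowest in both, and many lists moved toward 0 without that library.

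The precision of these values, estimated with the macrophage-depleted libraries included, set what could be seen. The 95% interval of the log2 change lay within a 2-fold change for 10190 genes (80.2%). It did so for 39.5% of genes with a mean under 5 CPM, 92.5% of those at 5 to 50 CPM and 97.7% of those above. The median SE was 0.27. These intervals and SEs rest on a spread shared with the macrophage-depleted libraries, not on that of the compared libraries alone. The median SD of log2 values was 0.238 in the controls and 0.149 in the Cx3cr1 Cx43-/- libraries. In a limma fit of the compared libraries alone, 435 genes were higher and 88 lower at an unadjusted p under 0.05. With the depleted libraries included these were 165 and 23. An adjusted p above the threshold does not show that a gene was unaltered.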

How the data were processed

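RNA-seq values of 6 microdissected AV node libraries, 3 control and 3 Cx3cr1 Cx43-/-, were used, with 3 macrophage-depleted libraries entering the shared estimate of spread. The authors deposited CPM, counts scaled to a fixed library total, rounded to 2 decimals for 34198 gene symbols. The tools STAR 2.3.0, HTSeq 0.6.0 and edgeR and the build mm9 are named per the submitters' processing notes, without their roles. The listed genes sum to less than that total in each library, and library totals are not given in the sources used here. Low values fell on steps of 0.016 to 0.0186 CPM, but reads were not rebuilt and no count model was fitted. Intervals cover the spread between libraries within groups, the macrophage-depleted group included.

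With limma 3.58.1 (R 4.3.3), 1 linear model of all 9 libraries was fitted to log2(CPM + 0.5), with trended empirical Bayes and two-sided tests. The 12925 genes at 1 CPM or more in at least 3 of 9 libraries were fitted, and p-values were adjusted over them by Benjamini-Hochberg. Fold changes on this scale understate those of low genes. The script was tested on simulated data. Coordinates are not given, because the genome used here differs in build.

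The genes compared and the gene lists were chosen with earlier results of these data known. Genes named were Gja1, Cx3cr1, Itgam, Hbegf, and 15 per direction without overlap, with a characterised symbol and 5 CPM or more on average in either group, called genes first and then by p. Called and smallest-p members of lists were added, and other list genes were named after their values were seen. Cyp2j9, Kcne1l, Slc22a3 and Emilin2, which are not established ventricular markers, were taken out of the ventricular list after its values had been seen. A few named genes are not reported here. Figures were drawn with matplotlib 3.10.9. Alternatives were pseudocounts, filters, scalings, thresholds, variance models and the omission of each library.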

Additional observations from a re-analysis of the deposited data

How the results depend on the processing

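The count of 1 called gene, Cytl1, was 0 with a pseudocount of 0.1, without a filter, without a variance trend or at an adjusted p under 0.01. It was 2 with a pseudocount of 2 (Cytl1 and Wnt9b) and 4 with library quality weights (Adamts2, Cytl1, Mfap4 and Vwf), and it ranged from 0 to 2 with each library left out in turn. With control library 1 left out the genes were Cytl1 and Vwf, and with Cx3cr1 Cx43-/- library 5 left out Cytl1 and Aldh1l1. Without any other single library the count was 0, by limma in each case. The cause was not tested. The genes at an unadjusted p under 0.05, 165 higher and 23 lower, became 435 and 88 in a fit of the 6 libraries alone, 307 and 86 with library quality weights, and 205 and 111 with quantile normalization. With each library left out they ranged from 40 to 522 higher and from 13 to 39 lower, the higher count being lowest without control library 2 and highest without control library 1. The log2 change of Gja1 ranged from -0.0686 to 0.23 with each library left out.

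Of 1712 gene values over 96 genes and 18 alternatives, 1656 kept their direction and side of the threshold, 7 lost it, 5 passed it and 44 changed sign. None of the last was called. Signs differed for Cfd (0.19), Hbegf (0.0112), Itga2b (0.12), Msln (-0.0828), Prg4 (0.0966) and Thbs4 (0.0524) with library quality weights, for Msln (-0.0158) with a pseudocount of 2, for Lum (-0.00295) with median-of-ratios scaling, for Adipoq (-0.11) and Msln (-0.0745) with quantile normalization. With each library left out, the ranges crossed 0 for 5_8S_rRNA (-1.06 to 0.0959), Adipoq (-0.49 to 0.96), Cdh5 (-0.0896 to 0.28), Cfd (-0.64 to 0.86), Ckm (-0.0564 to 0.0462), Cntn2 (-0.18 to 0.0126), Dcn (-0.0749 to 0.0429), Egr1 (-0.59 to 0.0976), Gja5 (-0.25 to 0.18), Gjd3 (-0.34 to 0.0606), Itga2b (-0.0955 to 0.13), Lum (-0.018 to 0.15), Msln (-0.66 to 0.94), Nppa (-0.0931 to 1.06), Panx1 (-0.15 to 0.59), Prg4 (-0.15 to 0.0898), Sox9 (-0.34 to 0.0375) and Thbs4 (-0.18 to 0.0301). Of 810 list medians, 18 moved by more than their libraries' spread.

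No paired analysis was possible because the groups share no replicate number. Single genes of low level are least certain: 39.5% of those with a mean under 5 CPM had a 95% interval within a 2-fold change. Library totals and collection time are not in the labels, and their part in these values was not tested.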

Other observations

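Some genes varied between libraries of a group more than between the groups, and the following were named after their values were seen. Cfd and Adipoq were lowest in Cx3cr1 Cx43-/- library 4, although the sum over 25 listed adipocyte genes in that library, 1804 CPM, lay above that in control library 2, 1672 CPM. Cfd, the adipokine adipsin, was at 40.6, 17.4 and 24.96 CPM in the controls and 5.82, 49.96 and 45.5 CPM in the Cx3cr1 Cx43-/- libraries, and Adipoq, adiponectin, at 5.54, 1.1 and 3.82 against 0.57, 6.83 and 5.68 CPM. The mesothelial genes Upk3b (10.7, 0.33 and 1.59 against 5.46, 2.5 and 10.6 CPM) and Msln (12.8, 0.93 and 2.67 against 3.24, 1.5 and 8.67 CPM) were highest in control library 1 and Cx3cr1 Cx43-/- library 6. Ighm, the heavy chain of IgM, was at 10.7, 5.54 and 7.19 against 7.92, 31.8 and 7.65 CPM, with library 5 highest. Aldh1l1, a folate enzyme, was at 25.2, 15.2 and 27.7 against 1.2, 26.1 and 1.97 CPM, low in libraries 4 and 6 and at control level in library 5. Control library 2 lay more than 1 log2 unit above all the other 5 libraries for 18 genes, among them symbols of structural RNAs. The 5_8S_rRNA symbol was at 2.86, 16.1 and 3.87 against 3.94, 2.87 and 4.09 CPM, and Lars2, a mitochondrial leucyl-tRNA synthetase, at 124, 599 and 186 against 164, 99.8 and 175 CPM. The Y-linked gene Eif2s3y was at 41.4, 40.1 and 45.7 against 41.6, 39.3 and 35.2 CPM, so all 6 libraries held RNA of male mice. Over 4-fold ranges within a group were seen for 155 genes in the controls, 6 without library 2, and for 14 in the Cx3cr1 Cx43-/- libraries.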
